A study of Mus musculus with 25 samples.

Results

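A set of 10 genes of the mouse trophoblast and placenta were followed across embryos lacking the microRNA cluster miR-302 (KO) and wild-type embryos (WT). The 10 genes were chosen by name, with earlier results of these data known. They comprise 3 placental prolactins (Prl2c3, Prl2c4 and Prl4a1) and 5 transcription factors (Rhox6, Rhox9, Hand1, Tfap2c and Ascl2). The other 2, Plac1 and Plac8, are named for the placenta. All 10 are among the 10261 genes tested. Their 12 probes, 3 of them for Tfap2c and 1 for each other gene, all passed the filter on dim probes.

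The trophoblast is the outer lineage of the conceptus that invades the uterus and builds the embryonic side of the placenta. Its giant cells border the maternal decidua and secrete prolactin-family hormones, while transcription factors of the ectoplacental cone and chorion set up its other layers. The placental prolactins are not known as products of neural tissue, and they are read here on every array as a gauge of trophoblast RNA. In such bulk samples, fewer cells of a type and less RNA per cell cannot be told apart.

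Expression in B6 embryos was read on 25 arrays of the Illumina type MouseRef-8 v2.0, and the design text states that replicates are independent embryos. Whole embryos were taken at embryonic day 7.5 (E7.5; 2 WT and 3 KO), and anterior neural tissue at E8.0 (2 WT and 3 KO), E8.5 (3 and 3) and E9.5 (4 and 4). One more E8.0 WT array, replicate 1, was labelled a whole embryo and formed a group of its own. KO stands for loss of miR-302 and WT for its presence, with no other allele or agent in the labels. No probe carried a miR-302 name, so the deletion itself could not be checked on these arrays. The deleted cluster lies on chromosome 3 and holds more mature strands than the 2 shown here, among them miR-302c-3p with the seed AGUGCUU. The 2 shown share a seed, bases 2 to 8, given in capitals. They are examples of the RNAs the KO embryos lack, and their RefSeq entries (GRCm38.p6) read as follows.
mmu-miR-302b-3p: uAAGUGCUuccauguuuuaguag
mmu-miR-302d-3p: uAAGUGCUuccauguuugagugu

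Values are log2 intensities after background correction and quantile normalisation. A probe counts as detected where its deposited detection p-value is below 0.05. Between 42.6% and 53.0% of probes were detected on an array, and arrays of one group correlated at 0.955 to 0.995. The tissue labels were checked against marker lists, of which only genes that passed the filter on dim probes entered the means. Of 16 listed anterior neural markers 14 had a probe. Hesx1, Emx2 and Pax2 were detected on 0 arrays and Sox3 on 1. Of 18 listed visceral endoderm and yolk sac markers 14 had a probe, and Fgb was detected on 0 arrays. The mean log2 intensity of 10 anterior neural markers was 5.73 to 6.38 on the E7.5 arrays and 6.90 to 8.07 on all later ones, and that of 13 visceral endoderm and yolk sac markers was 10.42 to 11.38 at E7.5 and 5.80 to 7.98 later. On the E8.0 array labelled a whole embryo the same lists stood at 7.95 and 6.71, levels within those of the arrays labelled neural.

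The 3 E8.0 WT arrays carry an identity that the deposited tables do not settle. On 22 arrays the detection p-values and the authors' processed values rank the probes as the raw signal of the same name does. For the E8.0 WT arrays they do not: the raw signal named replicate 1 (whole embryo) ranks like the other columns of replicate 3, replicate 2 like those of replicate 1, and replicate 3 like those of replicate 2. The raw column names are used here, and each E8.0 comparison is followed by its count of genes called with the other identities, under which replicate 1 and replicate 3 of the raw names form the neural group. Which set is right is not known.

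Promoter sequences are shown for the prolactin genes because their signals moved together across arrays. RefSeq windows (GRCm38.p6) were found for 5 of the 10 genes. The 250 bases before the start of Prl2c3 (chr13:12800080-12800329, minus strand), a proliferin, of Prl4a1 (chr13:28015962-28016211, plus strand), and of Prl3d3 (chr13:27156544-27156793, plus strand), a placental lactogen gene that is no member but ranked among the genes most like them, read as follows, with GATA on either strand and the elements TATATA and GAGGTNGAA in capitals.
Prl2c3: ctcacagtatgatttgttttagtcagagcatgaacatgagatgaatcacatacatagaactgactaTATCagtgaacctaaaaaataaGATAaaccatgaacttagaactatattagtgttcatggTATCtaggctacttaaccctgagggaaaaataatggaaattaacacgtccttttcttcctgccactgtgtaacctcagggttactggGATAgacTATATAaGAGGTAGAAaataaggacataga
Prl4a1: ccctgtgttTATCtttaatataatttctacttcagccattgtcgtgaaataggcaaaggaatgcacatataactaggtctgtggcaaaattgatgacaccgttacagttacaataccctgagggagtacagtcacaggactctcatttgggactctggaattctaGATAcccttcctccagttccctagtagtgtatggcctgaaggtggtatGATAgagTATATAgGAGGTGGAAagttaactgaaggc
Prl3d3: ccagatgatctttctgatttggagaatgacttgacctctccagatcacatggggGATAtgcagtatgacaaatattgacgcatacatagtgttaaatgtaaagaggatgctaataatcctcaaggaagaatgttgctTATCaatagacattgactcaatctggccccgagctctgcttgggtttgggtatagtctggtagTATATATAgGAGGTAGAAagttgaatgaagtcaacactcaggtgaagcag

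All 3 windows held TATATA followed, after 1 base, by GAGGTNGAA. TATATA reads the same on both strands and was present in 5.25% of 32851 promoter windows of the same length, GAGGTNGAA on either strand in 0.922%. Both occurred together in the windows of 19 genes, and 8 of these belong to the prolactin family, of which 21 genes had a window. GATA, the core bound by GATA factors of giant cells, was found 4 times before Prl2c3, 3 times before Prl4a1 and 2 times before Prl3d3, but 53.6% of all windows hold it. The AP-1 letters TGANTCA, in 6.75% of windows, were found in Prl2c3 and Prl3d3. GAGGTNGAA was searched for after it was seen in these sequences, and all matches are descriptions of letters only.

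The prolactins were strong on some arrays and undetected on others of the same group. Prl2c3, a proliferin of giant cells, was at 5.38 and 4.74 in E7.5 WT, both undetected, and at 11.75, 7.98 and 4.63 in E7.5 KO, the last undetected. It was at 12.60 and 9.37 in E8.0 WT, 12.28 on the whole-embryo array, and 10.69, 12.61 and 11.59 in E8.0 KO. At E8.5 it was at 10.64, 5.72 and 9.70 in WT and at 5.38, 5.76 and 8.30 in KO, of which only the last KO array was detected. All 8 E9.5 arrays lay between 4.6 and 4.74, undetected. The genotype groups overlapped at every stage, and within E7.5 KO the highest array was at least 62.5-fold above the lowest, which was undetected.

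Prl2c4, a second proliferin, followed the same arrays. Its values were 4.91 and 4.59 in E7.5 WT, 11.40, 7.53 and 4.66 in E7.5 KO, 12.08 and 8.83 in E8.0 WT, 11.81 on the whole-embryo array, and 10.27, 12.20 and 11.00 in E8.0 KO. At E8.5 they were 10.24, 5.51 and 9.23 in WT and 5.49, 5.58 and 7.81 in KO, and at E9.5 no array detected it. Prl2c3 and Prl2c4 are close paralogs, and the probe sequences were not used here, so the probes may share targets and the pair is not independent evidence.

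Prl4a1, another placental prolactin, repeated the pattern. It was undetected in E7.5 WT at 4.90 and 4.71, and stood at 8.95, 7.71 and 5.12 in E7.5 KO. At E8.0 it was at 9.89 and 8.19 in WT, 10.94 on the whole-embryo array and 9.63, 10.77 and 9.41 in KO. At E8.5 it was at 8.21, 4.87 and 9.41 in WT and 4.66, 4.74 and 6.74 in KO. The second E8.5 WT array and the first 2 E8.5 KO arrays were the low ones for all 3 prolactins.

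**Figure D1:**
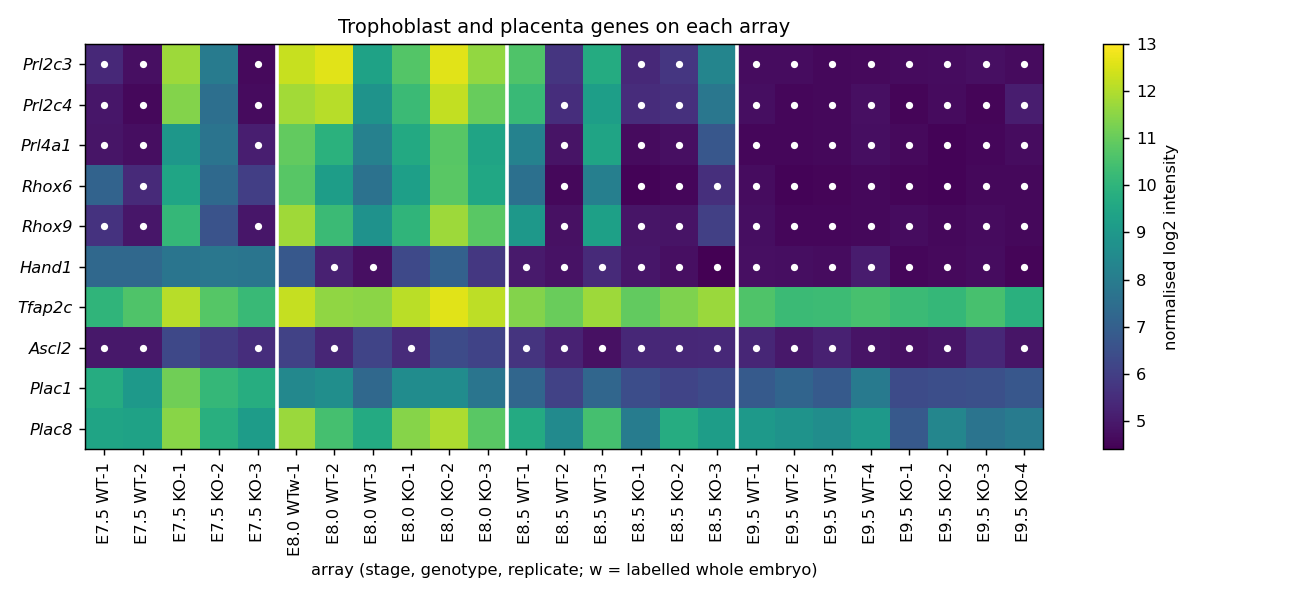
Normalised log2 intensity (colour) of the 10 genes (rows) on 25 arrays (columns, by stage, genotype and replicate; w marks the array labelled a whole embryo), with a white dot where the probe was not detected. The prolactins and the Rhox genes rise and fall on the same arrays and are undetected on all 8 E9.5 arrays.

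Rhox6 and Rhox9, X-linked homeobox genes expressed in placenta and germ cells, varied with the prolactins. Rhox9 was at 5.65 and 4.93 in E7.5 WT and 10.12, 6.61 and 4.92 in E7.5 KO. At E8.0 it was at 10.27 and 8.77 in WT, 11.79 on the whole-embryo array and 10.04, 11.73 and 10.79 in KO. At E8.5 it was at 8.97, 4.78 and 9.30 in WT and 4.89, 4.85 and 6.03 in KO. The arrays with low prolactins were again the low ones.

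Rhox6 was detected more widely at E7.5, at 7.14 and 5.44 in WT and 9.44, 7.33 and 6.0 in KO, with only the second WT array undetected. It was at 9.19 and 7.63 in E8.0 WT, 10.75 on the whole-embryo array, 9.24, 10.79 and 9.51 in E8.0 KO, and 7.56, 4.6 and 8.11 in E8.5 WT. The 3 E8.5 KO arrays, at 4.48, 4.56 and 5.56, were all undetected. Across 25 arrays, Pearson's r with the mean of the 3 prolactins was 0.984 for Rhox9 and 0.946 for Rhox6. These correlations describe arrays that share stages and plates and carry no test.

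Hand1, a basic helix-loop-helix factor required for giant cells and also active in the heart and lateral mesoderm, had a different course. It was at 7.32 and 7.30 in E7.5 WT and at 7.75, 7.81 and 7.73 in E7.5 KO, detected on all 5 arrays. At E8.0 it was undetected in WT, at 5.20 and 4.76, and detected on the whole-embryo array at 6.77 and in KO at 6.29, 7.07 and 5.78. It was undetected on every E8.5 and E9.5 array, at 4.43 to 5.42. Its r with the prolactin mean was 0.345.

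Plac1, an X-linked gene of trophoblast, was likewise highest at E7.5, where prolactins were not. It was at 9.73 and 9.05 in E7.5 WT and 11.12, 10.12 and 9.77 in KO, then at 8.65 and 7.30 in E8.0 WT, 8.41 on the whole-embryo array and 8.57, 8.58 and 7.74 in E8.0 KO. At E8.5 it lay between 6.08 and 7.24, and at E9.5 at 6.82, 7.17, 6.83 and 7.90 in WT against 6.38, 6.46, 6.50 and 6.74 in KO. It was detected on all 25 arrays, and its r with the prolactin mean was 0.395.

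Tfap2c, an AP-2 factor of trophoblast stem cells that is also expressed in surface ectoderm and neural crest, and Plac8, a cysteine-rich protein gene, were detected on every array. Tfap2c ranged from 9.86 in E9.5 KO to 12.60 in E8.0 KO. Plac8 was at 9.43 and 9.34 in E7.5 WT and 11.47, 9.82 and 9.16 in KO, and at 10.45 and 9.67 in E8.0 WT, 11.72 on the whole-embryo array and 11.44, 11.94 and 10.80 in KO. At E9.5 it was at 9.02, 8.83, 8.63 and 9.06 in WT and 6.79, 8.35, 7.71 and 7.97 in KO. Their r with the prolactin mean was 0.898 and 0.86, on top of a level that stayed detected where the prolactins were not.

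Ascl2, an imprinted factor that maintains the spongiotrophoblast lineage, was the dimmest. It was detected on 7 arrays, at 6.26 and 5.89 on the first 2 E7.5 KO arrays, 6.15 on E8.0 WT replicate 3, 6.09 on the whole-embryo array, 6.36 and 6.13 on E8.0 KO replicates 2 and 3, and 5.36 on 1 E9.5 KO array. Its r with the prolactin mean was 0.718.

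Ordered by the mean log2 intensity of the 3 prolactins, the arrays ran from 11.86 (E8.0 KO replicate 2) over 11.68 (E8.0 WT whole embryo), 11.52 (E8.0 WT replicate 2), 10.70 (E7.5 KO replicate 1), 10.67 and 10.20 (E8.0 KO replicates 3 and 1) to 9.70 and 9.45 (E8.5 WT replicates 1 and 3). Next came 8.80 (E8.0 WT replicate 3), 7.74 (E7.5 KO replicate 2) and 7.62 (E8.5 KO replicate 3). The other 14 arrays were at 5.37 or below. All 6 E8.0 arrays were thus among the highest 9, and 3 of the 6 E8.5 arrays were at 5.17 to 5.37, against 4.59 to 4.80 at E9.5. One array led each early stage: E7.5 KO replicate 1 was highest in its stage for 9 of the 10 genes, E8.0 KO replicate 2 for 7 and E8.5 WT replicate 3 for 7.

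**Figure D2:**
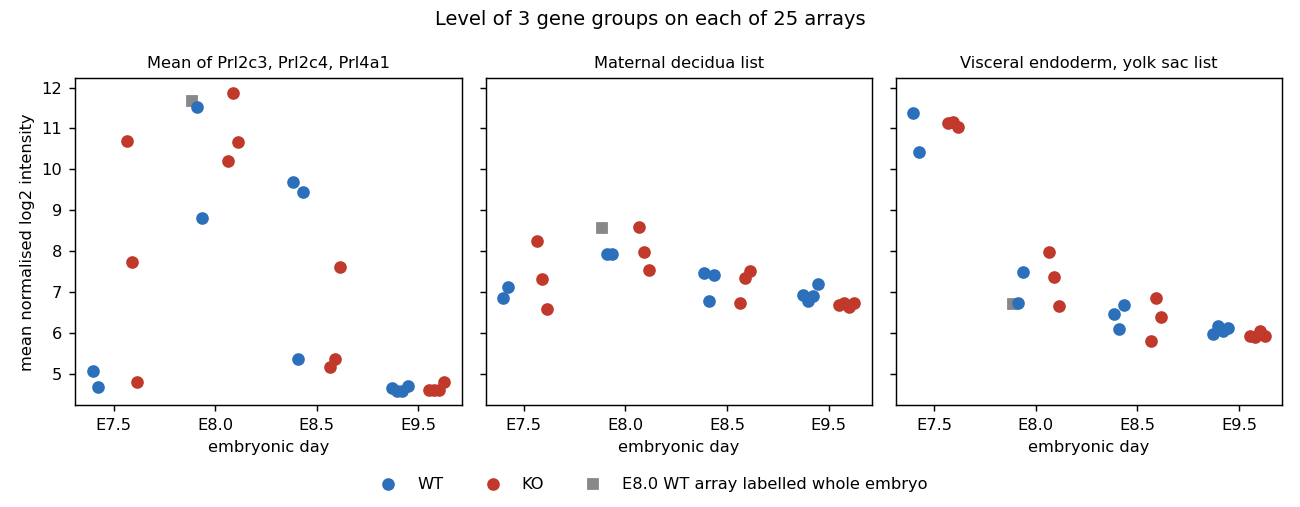
Mean normalised log2 intensity of the 3 prolactins, of 6 maternal decidua markers and of 13 visceral endoderm and yolk sac markers, 1 point for each array. The prolactin mean spans 4.81 to 10.70 within E7.5 KO and 5.37 to 9.70 within E8.5 WT, while the yolk sac list separates E7.5 from later stages.

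Of the 10 genes, 5 were among the 100 most variable of all genes between replicates of a group. Because the genes were chosen with earlier results of these data known, these ranks are descriptions only. The residual standard deviation within groups was 1.79 for Prl2c3, rank 4 of 10261 genes, and 1.70 for Prl2c4, rank 7. Rhox9 had 1.38 (rank 18), Prl4a1 1.23 (rank 31) and Rhox6 1.06 (rank 52). The median over all genes was 0.269. Hand1, at 0.29, and Ascl2, at 0.34, were near that median. The within-group standard deviation of Prl2c3 was 2.92 at E7.5, 1.53 at E8.0 and 2.16 at E8.5. At E9.5 it was 0.04, a spread of background, since the probe was undetected on all arrays there. Plac8, Plac1 and Tfap2c, still detected at E9.5, had 0.49, 0.38 and 0.23.

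**Figure D3:**
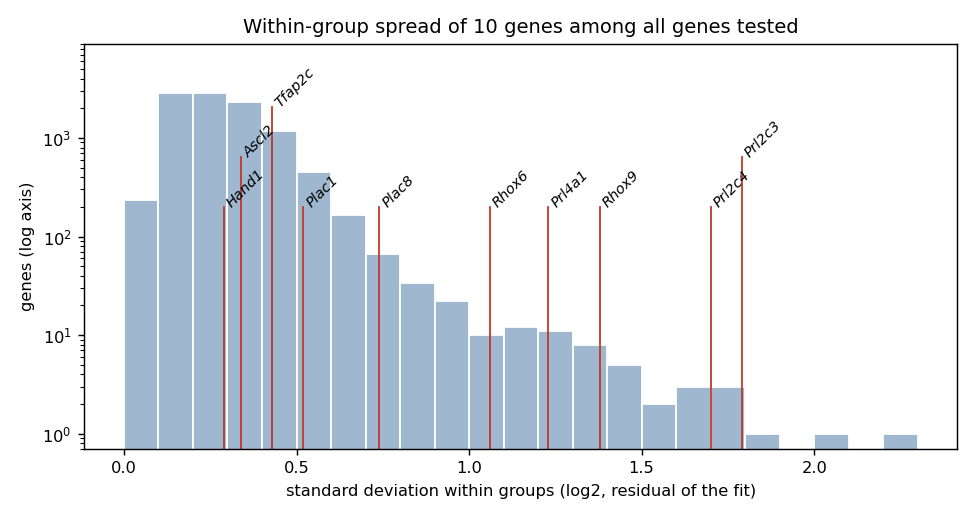
Histogram (log axis) of the within-group standard deviation of all 10261 genes, in log2 units, with the 10 genes marked in red. Prl2c3 and Prl2c4, at 1.79 and 1.70, lie far above the median of 0.269.

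By the rule of highest Pearson's r with the prolactin mean over 25 arrays, the 5 genes outside the 10 with the most similar pattern were Lgals3 (0.965), a galectin, Serpinb9g (0.936), a serpin, Cyp11a1 (0.932), the enzyme that starts steroid synthesis, Prl3d3 (0.93), a placental lactogen, and Scin (0.927), an actin-severing protein. Lgals3 was at 10.99, 8.28 and 6.33 in E7.5 KO and 8.88, 5.16 and 9.66 in E8.5 WT. In E8.5 KO it was at 4.82, 6.98 and 6.51, against prolactin means of 5.17, 5.36 and 7.62, a different order of arrays. Its likeness to the prolactins follows from the rule that picked it. Prl3d3 was highest on E7.5 KO replicate 1, at 12.17, and not at E8.0, where its 6 arrays lay between 7.23 and 9.98.

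**Figure D4:**
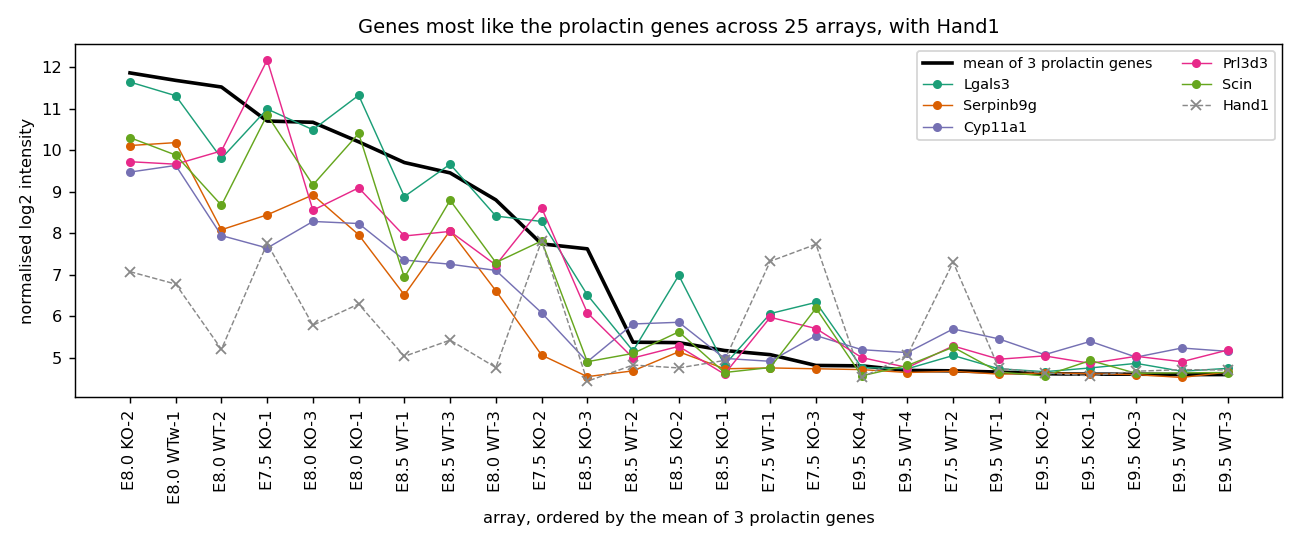
Normalised log2 intensity of the 5 genes most like the prolactins, and of Hand1 for contrast, on 25 arrays ordered from the highest to the lowest prolactin mean (black line). Hand1 is high on all E7.5 arrays, including 3 with a prolactin mean of 5.07 or below.

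Markers of maternal tissue were read on the same arrays. Of 12 listed decidua markers 6 were tested; progesterone receptor (Pgr), Esr1, Hoxa10, Hoxa11 and Prl3c1 were detected on 0 arrays and Hand2 on 1. The decidual prolactin Prl8a2, which the spongiotrophoblast also makes, was at 8.89 on E7.5 KO replicate 1, 7.14 on replicate 2 and 4.73, undetected, on replicate 3, and undetected in E7.5 WT at 4.58 and 4.73. It was at 7.14 and 5.37, the latter undetected, in E8.0 WT, at 10.73 on the whole-embryo array and at 8.73, 7.75 and 5.75 in E8.0 KO. At E8.5 it was at 6.6, 4.8 and 5.89 in WT and 4.97, 5.42 and 6.31 in KO, detected on WT replicates 1 and 3 and KO replicate 3, and it was undetected on all E9.5 arrays. The list did not follow the prolactins on every array. The summed linear level of the decidua list ranged from 1023 to 1388 in E7.5 WT, 929.4 to 1886 in E7.5 KO, 1589 to 1871 in E8.0 WT, 1306 to 2288 in E8.0 KO, 991.3 to 1328 in E8.5 WT and 797 to 1188 in E8.5 KO. It was 756.3 to 1326 in E9.5 WT, 669.6 to 759 in E9.5 KO and 3180 on the whole-embryo array. In E8.0 KO the sum was highest on replicate 1 (2288) and was 1561 on replicate 2, where the prolactins were highest. From E8.5 to E9.5, 2 of the 6 genes rose and 2 fell at an adjusted p under 0.05 in limma's test. Of all genes, 22.5% rose and 27% fell by that threshold. The part of the list in the results below was not tested.

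Sex-linked transcripts also differed between arrays. On E8.0 WT replicate 2, both Xist, the X-inactivation RNA of female cells, at 6.28, and the Y-linked Eif2s3y, at 7.32, and Kdm5d, at 6.21, were detected. E7.5 KO replicate 1, the highest array of its stage, had Xist at 7.51 and Eif2s3y undetected at 4.61, while on the 4 other E7.5 arrays Xist was undetected and Eif2s3y was at 7.14 to 7.74. That array was also the only E7.5 array on plate 2. Primitive blood markers, 7 tested, had a mean log2 intensity of 8.43 on it, against 5.36 to 6.01 on the 4 other E7.5 arrays, and a summed level of 14580 against 203.8 to 1409. Its means for heart (8.46) and germ cell markers (10.63) were also the highest of the stage. Sex-linked transcripts, these lists, plate and prolactin level thus moved together on that array, and their part in the E7.5 differences was not tested.

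The first comparison asked whether loss of miR-302 came with a different level of these genes at each stage. At E7.5 all 10 genes were higher on average in KO, with a median log2 difference of 1.12 against 0.001 over all genes, but 0 of 10 passed an adjusted p of 0.05, a threshold that 0.224% of all genes passed. By unadjusted p under 0.05, 4 of the 10 passed, as did 7.97% of all genes. Prl2c3, undetected in both WT arrays, was at least 5.23-fold higher in the KO mean (adjusted p = 0.635), Prl2c4 at least 4.38-fold (0.592) and Prl4a1 at least 2.88-fold (0.536), each detected on 2 of 3 KO arrays. Such a bound sets the KO mean against the dimmest detected signal of each WT array. Ascl2, undetected in WT, was at least 1.11-fold higher (adjusted p = 0.322), and Plac1 differed by 0.94 (SE 0.442, adjusted p = 0.613).

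All E7.5 KO arrays lay above both WT arrays for 4 of the 10 genes, Prl4a1, Ascl2, Hand1 and Plac1, as they did for 9.92% of all genes. E7.5 KO replicate 1 set much of the mean. Within plate 1, which held the other 4 arrays, the bound for Prl2c3 was at least 1.49-fold (adjusted p = 0.844) in place of 5.23-fold and that for Rhox9 at least 1.02-fold in place of 2.80-fold. The log2 difference of Plac8 was 0.10 in place of 0.76, and 0 of the 10 passed, as did 0.107% of all genes.

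At E8.0, Hand1 was higher in KO by 1.40 (SE 0.257, adjusted p = 0.0191), or at least 1.55-fold since WT was undetected, and it was the only one of the 10 that passed, against 1.68% of all genes. All 10 differences were positive, with a median of 0.82 against 0.025 over all genes. The prolactins differed by 0.65 to 0.90 with standard errors of 1.02 to 1.49, larger than the differences. Without WT replicate 3, which leaves 1 WT array assumed to vary like the other groups, the differences of Prl2c3 (-0.96, SE 1.84), Prl2c4 (-0.92, SE 1.73) and Plac1 (-0.35, SE 0.513) were negative. All KO arrays lay above both WT arrays for 4 genes, Hand1, Tfap2c, Rhox6 and Plac8, as for 18.4% of all genes. Plac8 differed by 1.33 (SE 0.620, adjusted p = 0.242) and Rhox6 by 1.44 (SE 0.886, adjusted p = 0.371).

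The Hand1 call was lost under several alternatives, whose log2 differences are fitted values that include undetected WT arrays. With the identities of the other deposited columns, the Hand1 difference was 0.61 (SE 0.387, adjusted p = 0.485), and 0 of the 10 genes passed, as did 0.156% of all genes. With the whole-embryo array added to WT it was 0.80 (adjusted p = 0.229), and with E8.0 fitted on its own arrays it was 1.40 (SE 0.407, adjusted p = 0.411), in a fit where 0 of all genes passed. Leaving out a WT array left 1, assumed to vary like the other groups: the difference was 1.62 (SE 0.324, adjusted p = 0.0781) without replicate 2 and 1.18 (SE 0.324, adjusted p = 0.139) without replicate 3. Within plate 1 it was 1.44 (adjusted p = 0.0456). The whole-embryo array stood above both E8.0 WT arrays for Hand1 and 5 more of the 10 genes, as it did for 38% of all genes. Since Hand1 is also a heart gene, the heart list is set beside it: its mean log2 intensity was 6.38 and 8.04 in E8.0 WT and 8.19, 6.97 and 7.94 in KO, with 0 of its 11 tested genes called. Its part in the Hand1 difference was not tested.

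At E8.5 the direction was the opposite for 9 of the 10 genes, with a median of -1.23 against -0.025 over all genes. None of the 10 passed in limma's test, while 5.59% of all genes did; 3 of the 10 had an unadjusted p under 0.05, as had 23% of all genes. Rhox9 differed by -2.43 (SE 1.03, adjusted p = 0.160), Prl4a1 by -2.12 (SE 0.916, adjusted p = 0.168), Prl2c3 by -2.21 (SE 1.34, adjusted p = 0.338), and Rhox6, undetected in KO, was at least 2.00-fold lower there (adjusted p = 0.156). Rhox9, Prl4a1 and Prl2c3 were each detected on 1 KO array, so their differences include background. Genotype groups overlapped for all 10 genes, while 28.6% of all genes had no overlap in one direction or the other. For the prolactins and the Rhox genes E8.5 WT replicate 2 was the only WT array below the highest KO array. Without it, 3 of the 10 passed, as did 3.63% of all genes: Prl4a1 (-3.43, adjusted p = 0.0268), Rhox9 (-3.88, adjusted p = 0.0273) and Rhox6, at least 4.22-fold lower (adjusted p = 0.0303). That array was singled out after its low values were seen. Within plate 2, which held all 3 WT arrays and KO replicate 1, Prl2c3 was undetected on the KO array and at least 7.36-fold lower there (adjusted p = 0.464). None of the 10 passed, against 0.721% of all genes, with the single KO array assumed to vary like the other groups.

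At E9.5, the prolactins and Rhox genes were undetected in both genotypes and differed by -0.02 to 0.05. None of the 10 passed in limma's test, against 2.23% of all genes, and 1 had an unadjusted p under 0.05, as had 18% of all genes. Plac8 differed by -1.18 (SE 0.480, adjusted p = 0.201) and Plac1 by -0.66 (SE 0.342, adjusted p = 0.321). With Hand1, undetected throughout, these were the 3 genes with every KO array below every WT array, a separation that 6.48% of all genes showed. With the 8 E9.5 arrays fitted alone, Plac8 passed (-1.18, SE 0.275, adjusted p = 0.0424). The share of all genes passing in that fit is not given here. All E9.5 arrays were on plate 4.

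**Figure D5:**
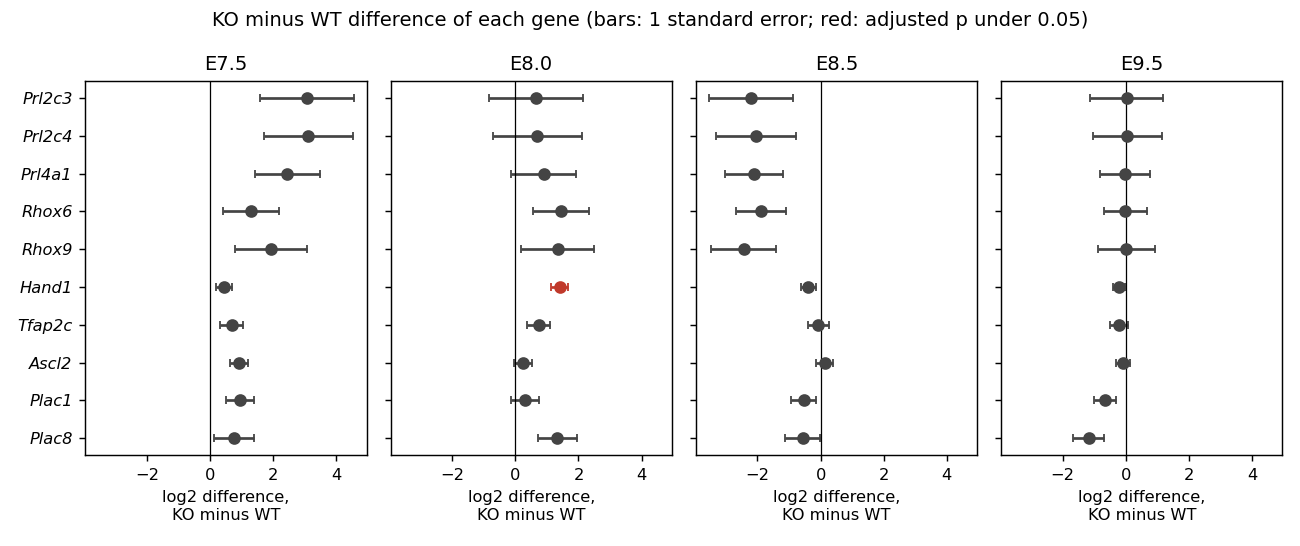
KO minus WT difference in log2 intensity of each gene at each stage, with bars of 1 standard error and red for an adjusted p under 0.05. The 10 differences are positive at E7.5 and E8.0 and mostly negative at E8.5, and Hand1 at E8.0 is the only one past the threshold.

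The change of the KO effect between stages was tested directly. From E7.5 to E8.0, 0 of the 10 genes passed, as did 0.0195% of all genes, and 1 of the 10 had an unadjusted p under 0.05, as had 10.1% of all genes. With the other E8.0 WT identities 0 passed as well, and 0 of all genes. From E8.0 to E8.5 all 10 estimates were negative, and 1 gene, Hand1, passed (-1.78, SE 0.345, adjusted p = 0.0434; 0.127% of all genes). With the other E8.0 WT identities that value was -1.0 (adjusted p = 0.676). Hand1 was undetected in E8.0 WT and on all E8.5 arrays, so both values are fitted ones that include background. From E8.5 to E9.5, 0 of the 10 passed in limma's test, against 10.1% of all genes, and 0 had an unadjusted p under 0.05, as had 26.9% of all genes. The reversal of sign of the prolactins, from 0.65 at E8.0 to -2.21 at E8.5 for Prl2c3, did not pass (-2.86, SE 2.00, adjusted p = 0.699).

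The next comparison followed the genes over stages. The E7.5 samples were whole embryos and the E8.0 ones neural tissue, so stage and dissection cannot be told apart in the first step. Averaged over genotypes, 8 of the 10 genes passed between E7.5 and E8.0, against 28.5% of all genes. The 6 higher at E8.0 were Prl2c3 by 4.72 (SE 1.06, adjusted p = 0.00186), Prl2c4 by 4.50 (SE 1.00), Rhox9 by 3.93 (SE 0.815), Prl4a1 by 3.45 (SE 0.724), Rhox6 by 2.19 (SE 0.626) and Tfap2c by 1.26 (SE 0.261). Hand1 was lower by -1.86 (SE 0.182, adjusted p = 1.46e-07) and Plac1 by -1.73 (SE 0.313, adjusted p = 0.00026). Of the 5 E7.5 arrays, Prl2c3, Prl2c4, Rhox9 and Prl4a1 were each detected on 2 and Rhox6 on 4. Their rises are fitted values that include background. The other Tfap2c probes gave 1.40 and 1.32. With the other E8.0 WT identities 9 of the 10 passed, Ascl2 being the one added (0.63, SE 0.189, adjusted p = 0.016), against 29.8% of all genes.

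In WT alone, 6 of the 10 passed this step (14% of all genes), and in KO alone 6 as well (25.8%), but not the same ones. In KO, Prl2c3 (3.51, SE 1.34, adjusted p = 0.0598) and Prl2c4 (3.29, SE 1.27, adjusted p = 0.0633) did not pass, while Rhox6 and Plac1 did. Against the undetected E7.5 WT arrays, Prl2c3 in E8.0 WT was at least 38.1-fold higher and Prl4a1 at least 9.89-fold. The prolactins of E7.5 and E8.0 overlapped over single arrays: E7.5 KO replicate 1, at a prolactin mean of 10.70, lay above 3 E8.0 arrays. In the same step all 7 primitive blood markers tested were higher, with a median log2 difference of 4.56. All 13 visceral endoderm and yolk sac markers tested were lower, with a median log2 difference of -3.66, and Cdx2, a trophoblast stem cell and posterior embryo factor, fell from 11.27 to 12.39 at E7.5 to 6.05 or less at E8.0. The summed level of the 26 other trophoblast genes tested was 23100 to 30140 on the E7.5 arrays and 12090 to 15600 on the E8.0 arrays labelled neural. That sum, which bright genes dominate, did not follow the prolactins. Gene by gene, 16 of the 26 were higher at E8.0 and 10 lower, with a median log2 difference of 0.24 against 0.053 over all genes. Of these, 5 passed as higher and 6 as lower, against 15.2% and 13.3% of all genes.

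From E8.0 to E8.5, 5 of the 10 genes fell, against 1.86% of all genes passing: Rhox9 by -3.71 (SE 0.773, adjusted p = 0.0207), Rhox6 by -3.32 (SE 0.594, adjusted p = 0.0100), Prl4a1 by -3.05 (SE 0.687, adjusted p = 0.0281), Plac1 by -1.56 (SE 0.297, adjusted p = 0.0117) and Hand1 by -0.78 (SE 0.173, adjusted p = 0.0258). Of the 6 E8.5 arrays, Rhox6 was detected on 2 and Rhox9 and Prl4a1 on 3 each, so their falls are fitted values that include background. Hand1 was undetected on all E8.5 arrays, and set against the dimmest detected signals there its E8.0 mean was not brighter, so no fold is given. Prl2c3 (-3.73, adjusted p = 0.0650) and Prl2c4 (-3.50, adjusted p = 0.0672) did not pass. Of the E8.0 arrays compared, KO replicate 1 was on plate 2 and all others were on plate 1. The E8.5 arrays were on plates 2 and 3, so stage and plate cannot be fully told apart in this step. In KO alone 8 of the 10 passed (3.23% of all genes) and in WT alone 0 (0.039%, with 1 of the 10 and 6.77% of all genes at an unadjusted p under 0.05), a contrast whose direct test, given above, passed for Hand1 only. With the E8.0 and E8.5 arrays fitted alone, 0 of the 10 and 0 of all genes passed. Without E8.0 WT replicate 2, 0 of the 10 and 0.653% of all genes passed. With the other E8.0 WT identities 6 of the 10 passed, Ascl2, undetected at E8.5, being the one added (adjusted p = 0.0402), against 1.45% of all genes.

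From E8.5 to E9.5, 6 of the 10 fell, against 49.5% of all genes changing. Prl2c3 was at least 4.63-fold lower (adjusted p = 0.00969), Prl2c4 at least 3.84-fold (0.0133), Rhox9 at least 2.15-fold (0.0295) and Prl4a1 at least 2.10-fold (0.0161). Tfap2c fell by 1.06 on the log2 scale (SE 0.218) and Plac8 by 0.97 (SE 0.367). In WT alone 6 of the 10 passed (41.9% of all genes) and in KO alone 1, Tfap2c (34.1%). Plate 4 held all E9.5 arrays and nothing else, so stage and plate cannot be told apart here. With plate as a random block Tfap2c was the only one of the 10 that passed. The share of all genes passing in that fit is not given here.

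A wider list of 66 trophoblast genes gave the setting for these 10. Of 56 with a probe, 26 were tested, and the chorion factor Eomes and the spongiotrophoblast marker Tpbpa were detected on 0 arrays. At E7.5, 0 of the 26 passed for KO against WT, with a median of 0.14. The smallest p-values belonged to the placental cathepsins Cts7 (1.46, SE 0.481, adjusted p = 0.346) and Ctsr (0.69, SE 0.247, adjusted p = 0.422), the connexin Gjb5 (-0.85, SE 0.285, adjusted p = 0.370) and Prl3d3 (3.2, SE 1.20, adjusted p = 0.466). Cts7 and Gjb5 were detected on 3 arrays each and Ctsr on 6. Of the genes named below, Cts3 was detected on 4 arrays and Serpinb9e on 7. Differences of these 5 genes are fitted values that include background.

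At E8.0, 0 of the 26 passed, with 19 positive and a median of 0.41. Serpinb9e, a trophoblast serpin, came nearest (1.81, SE 0.492, adjusted p = 0.0613), then Cts3 (0.80), the keratin Krt7 (0.90) and Gata2 (0.96). At E8.5, 0 of the 26 passed, with a median of -0.05, led by Phlda2, an imprinted restrainer of placental growth (-1.30, SE 0.391, adjusted p = 0.0559), Sox21 (-0.83), Krt7 (0.94) and Gjb5 (0.72).

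At E9.5, 2 of the 26 passed, against 2.23% of all genes. Phlda2 was lower in KO, at 7.0, 7.07, 6.21 and 6.33 against 8.49, 7.91, 7.46 and 8.56 in WT (-1.45, SE 0.339, adjusted p = 0.0286). Sox21 was higher, at 12.22, 12.16, 11.44 and 11.83 against 10.35, 10.95, 10.98 and 10.25 (1.28, SE 0.247, adjusted p = 0.00901). Every KO array lay below every WT array for Phlda2, as for 6.48% of all genes. For Sox21 every KO array lay above every WT array, a separation not counted over all genes. Sox21 is also a factor of neural progenitors, and the prolactins were undetected on all of these arrays. Dlx3 (-0.57) and Krt7 (-0.65) followed without passing.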

How the data were processed

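Per the file headers, the authors deposited a raw signal intensity and a detection p-value for 25697 probes on 25 arrays. The authors' series matrix gave processed intensity values, with E9.5 on another median (153.2) than earlier stages (124.5), so the step to E9.5 was not tested in it. No source used here says how the authors made the detection p-values. Detection p-values were paired with the signals they order with. Signals were background corrected with normexp and quantile normalised (neqc, offset 16, limma 3.58.1, R 4.3.3). Probes detected on at least 3 arrays were kept (15030). Each gene took its brightest probe by mean, and 885 kept probes without a symbol were left out. Names came from the platform annotation, updated to the RefSeq symbol of the same gene identifier where the symbols differed. One limma model with 9 groups (16 residual degrees of freedom) was fitted and p-values were adjusted by Benjamini-Hochberg over 10261 genes, two-sided. The model was also run on simulated data with independent normal noise for each gene and array. That simulation held no plate effect within a stage, no shared variation of genes and no detection floor, so it does not cover these features. The number of arrays limits the precision.

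The 10 genes and all lists were chosen with earlier results of these data known. All 10 genes are named by every probe. Of the other trophoblast genes, those that passed and the 4 with the smallest p-values were named in each genotype comparison, with the 5 genes most like the prolactin mean and, where a list bears on a result, up to 3 of its genes. Prl8a2, Cdx2, the sex-linked transcripts and undetected markers were named after their values were seen. Replicate numbers pair no arrays: the correlation of deviations between same-numbered KO and WT arrays ranged from -0.13 to 0.16.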

Additional observations from a re-analysis of the deposited data

Results flagged for a closer look

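Hand1 differed in its KO effect between E8.5 and E8.0, by -1.78 on the log2 scale in the test of the difference itself. Hand1 was detected on 3 of 3 E8.0 KO arrays but undetected in E8.0 WT and on all E8.5 arrays, so the value includes background. The call was kept in 3 of 13 other settings and in 4 of 11 fits without 1 array.

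The E8.0 WT array labelled a whole embryo, which entered no comparison, stood above both other E8.0 WT arrays for 6 of the 10 genes, as it did for 38% of all genes. Prl4a1 was at 10.94 there against 8.19 and 9.89, and Hand1 at 6.77 against 4.76 and 5.20. Tfap2c was at 12.24 against 11.52 and 11.58, and Rhox6 at 10.75 against 7.63 and 9.19. Rhox9 was at 11.79 against 8.77 and 10.27, and Plac8 at 11.72 against 9.67 and 10.45. The other deposited columns give that array to the neural group as replicate 3.

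Within the groups of 4 at E9.5, a single array stood apart in 2 of 20 cases, of which chance flags about 1 in 20. Hand1 was at 5.06 on WT replicate 4 against 4.70 to 4.74 on the others, and Rhox9 at 4.73 on WT replicate 1 against 4.55 to 4.57. None of these values was detected.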

How the results depend on the processing

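Of 221 recomputed counts of members called, 181 stayed within 1.5 times the reported count. For KO against WT at E8.0 (1 called), the count was 0 without background correction, with the authors' matrix values, with the stage fitted alone, with the whole-embryo array in WT and with the matrix identities. At E9.5 it was 1 with the stage fitted alone. The KO effect at E8.5 minus that at E8.0 (1 called) gave 0 with an offset of 50, without background correction, with the matrix values, with every probe tested on its own, with plate as a covariate or random block, with the stages fitted alone, with the replicate block, with the whole-embryo array in WT and with the matrix identities. The step from E8.0 to E8.5 (5 called) gave 3 with the matrix values, 3 with plate as a random block, 8 with it as a covariate, 0 with the stages fitted alone, 8 with the whole-embryo array in WT, 0 in WT and 8 in KO. The step from E8.5 to E9.5 (6 called) gave 1 with plate as a random block and 1 in KO. The causes were not tested. The share of all genes passing is given above for some of these settings only. For the others, a changed count for these genes cannot be told apart from a change in calls over all genes.

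Leaving out 1 array gave 0 to 1 called at E8.0, 0 to 3 at E8.5, 0 to 7 from E8.0 to E8.5 and 3 to 7 from E8.5 to E9.5. For the KO effect it gave 0 to 1 from E8.0 to E8.5 and 0 to 2 from E8.5 to E9.5, the 2 without E8.5 WT replicate 2. It gave 7 to 9 from E7.5 to E8.0. A plate covariate gives no value for the step to E9.5, the matrix values were not used for it, and at E9.5 the within-plate fit is the reported one. Detection p-values as paired by their headers, an alternative chosen after seeing the data, changed no count by over 1.5 times. The replicate block changed no other count by over 1.5 times. For fits without 1 array, the share of all genes passing is mostly not given here. The ranges of these counts are therefore not set against all genes. Of 730 recomputed differences of single genes, 705 kept their sign and side of the threshold and 0 reversed with a call.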
